A study of Homo sapiens with 14 samples.

Results

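The 10 genes of the G1 cell cycle machinery followed here in lung adenocarcinoma cells treated with an aurora kinase inhibitor were the CDK inhibitors CDKN1B, CDKN1C, CDKN2A, CDKN2B, CDKN2C and CDKN2D, the CDK-associated phosphatase CDKN3, and the kinases CDK2, CDK4 and CDK6. They were chosen by symbol, with no threshold on a measured value, but with earlier results of these data known. All 10 were found among the 26732 gene symbols that both count tables hold. RNA was sequenced from A549 and H1792, established human lung adenocarcinoma lines, 48 h after addition of 0.1 µM AMG900, which inhibits the aurora kinases, or of its solvent DMSO. A549 (4 DMSO and 4 AMG900 libraries) was grown in DMEM and H1792 (3 DMSO and 3 AMG900 libraries) in RPMI medium, so the lines also differ in medium. The protocol in the labels speaks of 3 replicate dishes per treatment whereas 4 are listed for A549. Replicates are dishes of 1 line, and p-values measure the spread between such dishes only.

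Progression from G1 into S phase is driven by CDK4 and CDK6 bound to D-type cyclins and by CDK2 bound to cyclins E and A. These kinases phosphorylate the RB1 family and thereby release E2F transcription factors. The INK4 inhibitors (p16 from CDKN2A, p15 from CDKN2B, p18 from CDKN2C and p19 from CDKN2D) bind CDK4 and CDK6, whereas the CIP/KIP inhibitors (p27 from CDKN1B and p57 from CDKN1C) bind cyclin-CDK complexes, those of CDK2 in particular. CDKN3 removes the activating phosphate from CDK2. Loss of CDKN2A at 9p21 is a frequent event in lung cancer, and A549 is known to carry a homozygous deletion of it.

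A549 libraries held between 4248944 and 18940099 counts and H1792 libraries between 42760874 and 79902934, so low genes are measured more precisely in H1792. Line, medium, depth and sequencing table cannot be told apart in any comparison between the lines, of levels or of responses to AMG900. Summed epithelial keratin and adhesion markers (6 genes) were between 7533 and 9790 CPM (read counts scaled to a common library total) in A549 with DMSO and between 10704 and 12615 CPM with AMG900, and between 1574 and 2025 CPM in H1792. The adhesion markers were a small part of these sums. With DMSO, EPCAM averaged 0.287 CPM in A549 (1 to 7 reads per library) and 3.48 CPM in H1792. CDH1 averaged 21.9 CPM in A549 and 0.697 CPM in H1792 with DMSO. The summed level of 3 endothelial markers did not exceed 16.5 CPM in any library, and that of 3 fibroblast or pericyte markers did not exceed 0.851 CPM in A549 and 48.7 CPM in H1792. The 4 blood markers, with CD3E at 0 in A549, summed to between 54.9 and 80.7 CPM in A549 with DMSO and to between 152 and 170 CPM with AMG900, and to between 99.96 and 115 and between 171 and 197 CPM in H1792. The part of these marker levels in the results was not tested. The fold change of all genes rose with transcript GC content in both lines (Spearman rho across genes 0.500 in A549 and 0.483 in H1792; genes are not independent replicates), and for the 10 genes the value after a correction for GC content is therefore given beside each result whose call or sign it changes.

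Promoter windows of RefSeq (250 bases before to 50 bases after a start, build GRCh38.p14) were found for 8 of the 10 genes, the exceptions being CDK2 and CDKN1C. They were searched on both strands for TTTNNCGC, letters of an E2F site, and for TTTGAA, the cell cycle homology region, because several of the genes moved together. CDKN3 and CDKN2D are shown since theirs were the only windows among these with a match, in capitals: in CDKN3 the second motif on the other strand, starting at position -170 counted from the start of transcription, within chr14:54396757-54397056, plus strand, and in CDKN2D the first motif, starting at position -216, within chr19:10568930-10569229, minus strand.
CDKN3: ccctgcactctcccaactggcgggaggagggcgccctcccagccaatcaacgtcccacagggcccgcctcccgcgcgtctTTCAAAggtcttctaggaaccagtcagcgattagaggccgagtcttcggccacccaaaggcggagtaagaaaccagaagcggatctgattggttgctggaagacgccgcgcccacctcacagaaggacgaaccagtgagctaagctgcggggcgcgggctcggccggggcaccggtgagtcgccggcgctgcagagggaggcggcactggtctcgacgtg
CDKN2D: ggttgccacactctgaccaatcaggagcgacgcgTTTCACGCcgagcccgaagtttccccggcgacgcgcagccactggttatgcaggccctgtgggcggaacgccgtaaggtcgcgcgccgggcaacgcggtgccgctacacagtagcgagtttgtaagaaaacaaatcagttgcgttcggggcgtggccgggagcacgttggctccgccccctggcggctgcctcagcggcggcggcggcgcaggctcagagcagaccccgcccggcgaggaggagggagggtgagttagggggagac
Of all 35116 RefSeq windows of this length, 15.16% hold the TTTGAA letters and 6.886% the TTTNNCGC letters, so a match in a window is not rare. The windows of CDKN1B, CDKN2A, CDKN2B, CDKN2C, CDK4 and CDK6 hold neither set of letters.

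AMG900 lowered 5 of the 8 genes that could be tested in A549 (CDKN3, CDK2, CDKN2C, CDK6 and CDK4) and raised 1 (CDKN1C) at an FDR of 0.01. Over all 13174 genes tested in A549, 17.8% were called lower and 17.2% higher (35% in either direction). The median log2 fold change of the 8 genes was -0.42, against -0.01 for all genes. In H1792, 4 of 9 tested genes were lowered (CDK2, CDKN2C, CDKN1B and CDK4) and again CDKN1C was raised, against 18.8% called lower and 16.2% called higher (35.1% in either direction) among 15017 genes, with medians of -0.24 for these 9 genes and 0.01 for all. RNA was extracted from whole dishes, so a change in the share of cells that express a gene and a change in RNA per cell cannot be told apart. For treatment effects, levels are given as CPM scaled within a line.

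**Figure D1:**
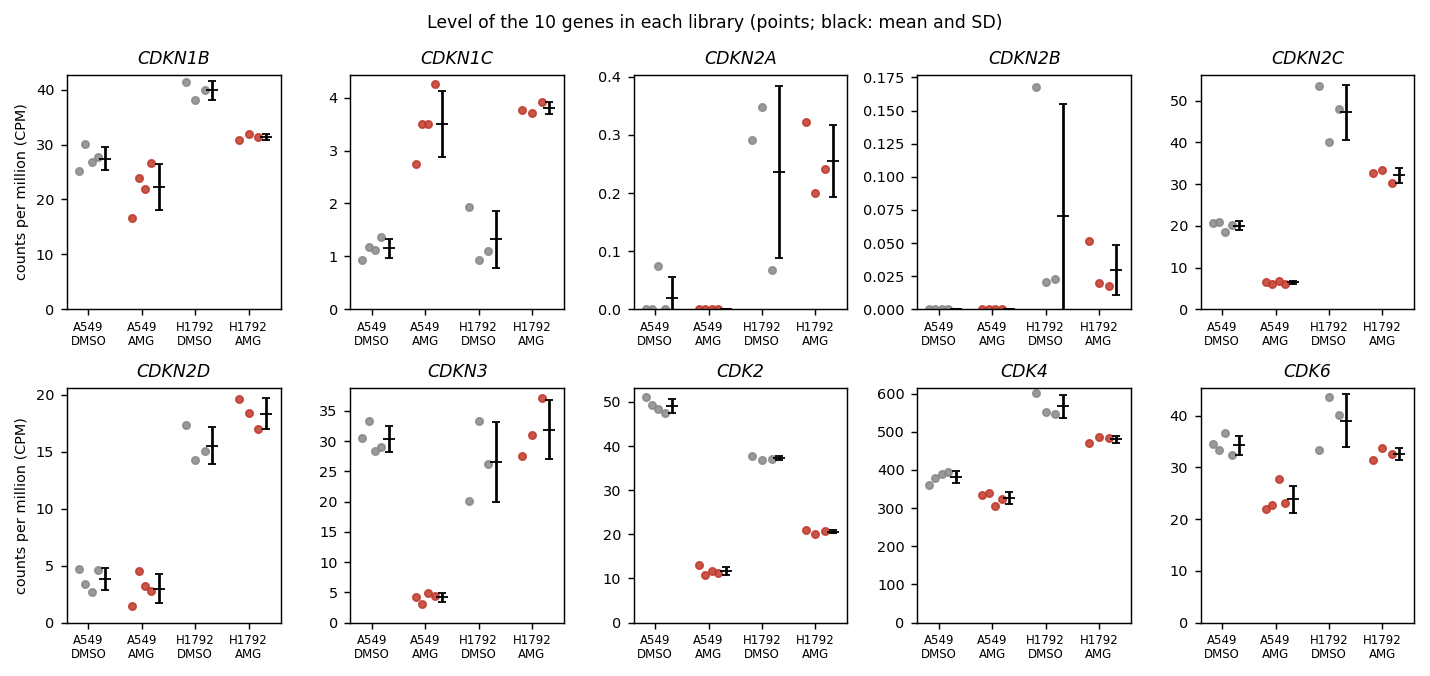
Level of each of the 10 genes (CPM, scaled within each line, linear axis from 0) in every library of the 4 groups: grey points are DMSO and red points AMG900 libraries, with the group mean and SD in black to the right of each group. CDKN3 and CDK2 in A549 fall from groups around 30.4 and 49.1 CPM to groups around 4.16 and 11.7 CPM, and CDKN2A and CDKN2B lie at or near 0.

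Among the kinases, CDK2 (chr12:56360565-56366573, GRCh37) changed most. In A549 its level was 51.2, 49.4, 48.3 and 47.4 CPM in the DMSO libraries and 12.9, 10.8, 11.8 and 11.2 CPM with AMG900. Every AMG900 library lay far below every DMSO library. The log2 fold change was -2.07 ± 0.10 (SE), a 4.21-fold fall (edgeR adjusted p = 8.2e-10). In H1792 the DMSO libraries had 37.9, 36.9 and 37.1 CPM of CDK2 and the AMG900 libraries 20.9, 20.2 and 20.8 CPM. These groups did not overlap either, and the fall was 1.81-fold (log2 -0.85 ± 0.06, edgeR adjusted p = 5.9e-06). PMEL and an unnamed gene on the other strand share 16.8% of the CDK2 exonic bases, and PMEL did not exceed 2.28 CPM (scaled over all 14 libraries) in any library.

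CDK4 (chr12:58141510-58149796), the D-type cyclin kinase with the higher RNA level in these cells, fell by far less. A549 libraries had 360, 379, 389 and 395 CPM with DMSO and 334, 340.5, 305 and 325 CPM with AMG900. The groups did not overlap, but the log2 fold change was only -0.22 ± 0.06 (1.17-fold, edgeR adjusted p = 0.0095), and the call was lost when any library other than DMSO replicate 1 was left out (adjusted p up to 0.040). The call was also lost with the size factors of DESeq2, without a filter on low counts, with at least 10 counts required in every library and with the replicate block (edgeR adjusted p = 0.012, 0.018, 0.023 and 0.028). H1792 had 601, 553 and 547 CPM with DMSO and 470, 487 and 484 CPM with AMG900, again without overlap (log2 -0.24 ± 0.05, 1.18-fold, edgeR adjusted p = 0.0035). Leaving out any 1 of the 3 AMG900 libraries ended the call in H1792 (adjusted p up to 0.023). Exons of TSPAN31 on the other strand share 44.2% of the CDK4 exonic bases, and whether the counting used strand is not given in the sources used here. TSPAN31 itself rose in A549 (log2 0.80, edgeR adjusted p = 7.8e-04) and had a log2 value of 0.10 in H1792 (adjusted p = 0.41), and its part in the CDK4 value was not tested.

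CDK6 (chr7:92234235-92465887), the other D-type cyclin kinase, had 34.5, 33.4, 36.7 and 32.3 CPM in A549 with DMSO and 22.0, 22.7, 27.8 and 23.1 CPM with AMG900. The groups were apart, with a 1.43-fold fall (log2 -0.52 ± 0.11, edgeR adjusted p = 0.0012), but after correction for GC content the log2 fold change was -0.07 (adjusted p = 0.58) and the call was gone. H1792 had 33.4, 43.6 and 40.1 CPM of CDK6 with DMSO and 31.5, 33.8 and 32.5 CPM with AMG900. DMSO replicate 1 lay within the AMG900 range, and the change did not pass the test (log2 -0.26, 95% interval -0.46 to -0.05, edgeR adjusted p = 0.038). It passed without that library (log2 -0.39, adjusted p = 1.1e-04) and turned to 0.12 after correction for GC content (adjusted p = 0.14).

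CDKN3 (chr14:54863567-54886936), the phosphatase that acts on CDK2, showed the largest change of the 10 genes in A549. Its level was 30.5, 33.4, 28.4 and 29.1 CPM in the DMSO libraries and 4.25, 3.08, 4.85 and 4.46 CPM with AMG900. All AMG900 libraries were far below all DMSO libraries, a 7.24-fold fall (log2 -2.86 ± 0.15, edgeR adjusted p = 1.6e-09). In H1792 it had 20.2, 33.4 and 26.2 CPM with DMSO and 27.5, 31.1 and 37.1 CPM with AMG900. The H1792 groups overlapped, and the value was not called (log2 0.26, 95% interval -0.10 to 0.62, edgeR adjusted p = 0.20), although it was called higher after correction for GC content (log2 0.54, adjusted p = 0.0058).

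CDKN2C (chr1:51426417-51440306), which encodes p18, was the INK4 gene with the largest change. A549 had 20.7, 20.8, 18.4 and 20.3 CPM with DMSO and 6.61, 6.10, 6.84 and 6.13 CPM with AMG900. The libraries of each group were tightly placed and well apart, with a 3.11-fold fall (log2 -1.64 ± 0.13, edgeR adjusted p = 1.4e-07). In H1792 the DMSO libraries had 53.5, 40.2 and 48.0 CPM and the AMG900 libraries 32.8, 33.4 and 30.2 CPM. The fall was smaller, 1.47-fold, without overlap (log2 -0.56 ± 0.10, edgeR adjusted p = 9.0e-04). An unnamed gene on the other strand shares 20.4% of the CDKN2C exonic bases.

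CDKN2D (chr19:10677136-10679735), which encodes p19, was not called in either line. A549 had 4.70, 3.36, 2.69 and 4.63 CPM with DMSO and 1.42, 4.56, 3.18 and 2.78 CPM with AMG900. These ranges overlapped, and the wide interval of the log2 fold change (-0.32, 95% interval -1.0 to 0.36, edgeR adjusted p = 0.43) leaves a fall of up to 2-fold undetectable at this depth, with 15 to 78 reads per library. H1792 had 17.3, 14.3 and 15.1 CPM with DMSO and 19.7, 18.4 and 17.0 CPM with AMG900. Only DMSO replicate 1 reached into the AMG900 range (log2 0.24, 95% interval 0.03 to 0.45, edgeR adjusted p = 0.059). Without that library the gene was called higher (log2 0.30, adjusted p = 0.0072), and after correction for GC content the log2 value was -0.075.

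CDKN2A (chr9:21967751-21995300), whose count pools p16 and ARF transcripts, was barely read. In A549, 1 read was counted among 104436288 counts of the 8 libraries, in DMSO replicate 3. H1792 had 88 reads among 345031608 counts, with 19, 17 and 3 reads in the DMSO libraries and 25, 10 and 14 with AMG900. The H1792 groups overlapped (log2 0.10, 95% interval -1.03 to 1.23, edgeR adjusted p = 0.89), and the sign turned without DMSO replicate 3 (-0.30), without AMG900 replicate 1 (-0.12) and after correction for GC content (-0.17). Exons of CDKN2B-AS1 on the other strand share 15.3% of the CDKN2A exonic bases, but that gene had 1 read in all H1792 libraries and 0 in A549.

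CDKN2B (chr9:22002902-22009304), which encodes p15, had no read in any A549 library. It had 11, 1 and 1 reads in the H1792 DMSO libraries and 4, 1 and 1 with AMG900, too few for a test in any comparison. H1792 replicate 1 held most of the reads under either treatment.

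The CIP/KIP genes CDKN1C and CDKN1B were called in opposite directions in H1792, while in A549 CDKN1C was called and CDKN1B was not. CDKN1C (chr11:2904443-2907005), which encodes p57, was the only one of the 10 genes called higher with AMG900, and it was so in both lines. In A549 it had 0.939, 1.18, 1.12 and 1.36 CPM with DMSO (4 to 23 reads per library) and 2.74, 3.50, 3.50 and 4.26 CPM with AMG900 (29 to 66 reads). Every AMG900 library was at least as high as 2.74 CPM and no DMSO library exceeded 1.36 CPM, a 2.95-fold rise (log2 1.56 ± 0.28, edgeR adjusted p = 3.4e-04). H1792 had 1.94, 0.923 and 1.09 CPM with DMSO and 3.77, 3.71 and 3.92 CPM with AMG900. The rise was 2.83-fold without overlap (log2 1.5 ± 0.24, edgeR adjusted p = 5.7e-04), with DMSO replicate 1 the highest of the untreated libraries.

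CDKN1B (chr12:12838432-12875303), which encodes p27, had 25.1, 30.1, 26.7 and 27.7 CPM in A549 with DMSO and 16.6, 24.0, 21.9 and 26.6 CPM with AMG900. The groups overlapped and the change was not called (log2 -0.30, 95% interval -0.59 to -0.01, edgeR adjusted p = 0.081). In H1792 it had 41.5, 38.1 and 39.95 CPM with DMSO and 30.8, 31.9 and 31.3 CPM with AMG900. Here the groups were apart and the 1.27-fold fall was called (log2 -0.35 ± 0.06, edgeR adjusted p = 0.0011).

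An interaction term of line with AMG900 was fitted to ask whether the response itself differed between A549 and H1792, each in its own medium and at its own depth. It was called for 3 of the 8 genes tested, all with a higher value (a weaker fall, or none) in H1792: CDKN3 by 3.04 ± 0.23, CDK2 by 1.14 ± 0.11 and CDKN2C by 1.00 ± 0.15 on the log2 scale. The edgeR adjusted p was 9.5e-09 for CDKN3, 3.9e-07 for CDK2 and 6.8e-05 for CDKN2C. None was called lower by edgeR or DESeq2, and 0 had a lower value at an unadjusted p under 0.05. Over all 14769 genes, 5.37% were called higher and 9.17% lower, with a median of -0.10. With the size factors of DESeq2 this split was 6.85% and 6.99% and the median -0.02, and the same 3 genes were called. CDKN1C responded with a difference of -0.13 between the lines (95% interval -0.91 to 0.66, edgeR adjusted p = 0.84), which turned to 0.12 after correction for GC content. The differences of CDKN1B (-0.12, interval -0.47 to 0.22), CDK4 (-0.09, interval -0.27 to 0.09; 0.022 after correction for GC content), CDK6 (0.18, interval -0.12 to 0.48) and CDKN2D (0.46, interval -0.20 to 1.13) were not called, so the call of CDKN1B in H1792 alone is not a shown difference between the lines.

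**Figure D2:**
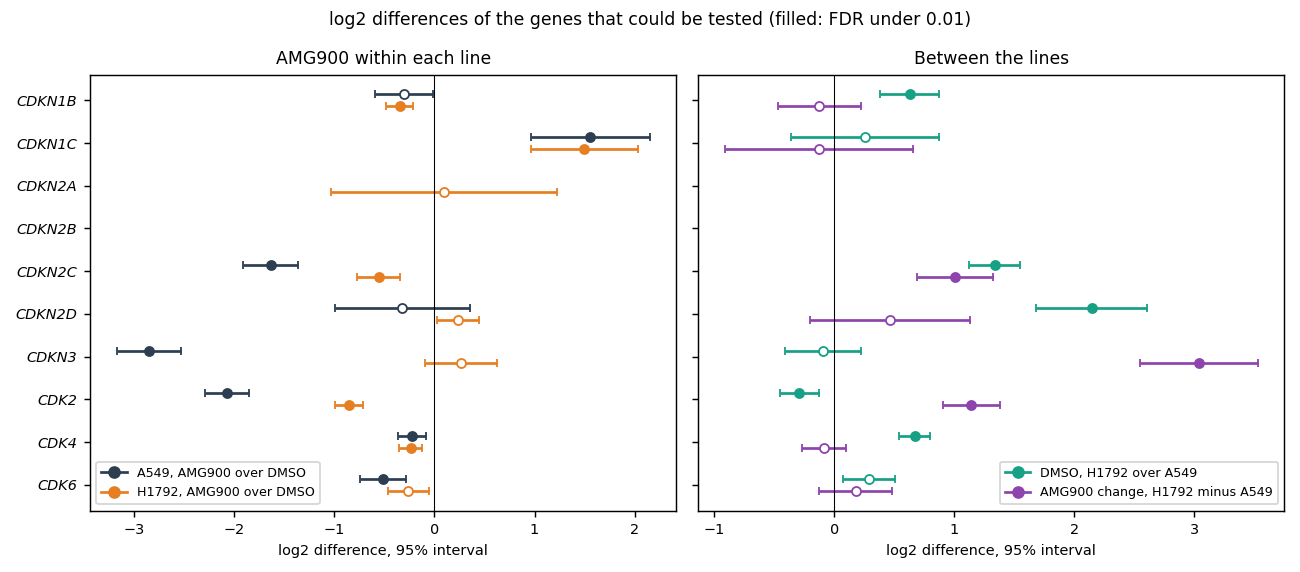
Log2 differences with 95% intervals for the genes that could be tested, filled where the edgeR FDR was under 0.01: left, AMG900 over DMSO in A549 (dark) and H1792 (orange); right, the DMSO level in H1792 over A549 (green) and the difference of the AMG900 effect, H1792 minus A549 (purple). The A549 and H1792 intervals lie apart for CDKN2C, CDKN3 and CDK2, and nearly coincide for CDKN1C and CDK4.

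Without AMG900, 4 of the 8 tested genes were higher in H1792 than in A549 (CDKN2D, CDKN2C, CDK4 and CDKN1B) and 1 was lower (CDK2). Over all 14769 genes, 34.2% were called higher and 31.9% lower, so the lines differ at many genes. Levels in this comparison are CPM scaled over all 14 libraries. CDKN2D was at 4.43, 3.18, 2.59 and 4.49 CPM in A549 and at 17.8, 14.6 and 15.4 CPM in H1792, 4.42-fold higher (log2 2.15 ± 0.22, edgeR adjusted p = 4.4e-08). CDKN2C was at 19.5, 19.7, 17.8 and 19.7 CPM in A549 and at 54.8, 41.1 and 49.1 CPM in H1792, 2.53-fold higher (log2 1.34 ± 0.10, edgeR adjusted p = 5.3e-10). For both of these INK4 genes every H1792 library was above every A549 library.

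CDK4 was 1.59-fold higher in H1792 (581 ± 30.8 CPM, SD, n = 3) than in A549 (364 ± 19.5 CPM, SD, n = 4), without overlap (log2 0.67 ± 0.06, edgeR adjusted p = 8.7e-09). CDKN1B was 1.55-fold higher (40.8 ± 1.76 against 26.2 ± 2.0 CPM; log2 0.63 ± 0.12, edgeR adjusted p = 8.5e-05), likewise without overlap. CDK2 was slightly lower in H1792 (38.2 ± 0.553 against 46.9 ± 0.977 CPM; log2 -0.29 ± 0.08, edgeR adjusted p = 0.0023). That call was lost when any 1 of the 3 H1792 DMSO libraries was left out (adjusted p up to 0.021), without a filter on low counts (log2 -0.24, adjusted p = 0.044) and after correction for GC content (log2 -0.22, adjusted p = 0.016). CDK6 (log2 0.29, interval 0.07 to 0.50, edgeR adjusted p = 0.017), CDKN1C (0.26, interval -0.36 to 0.87) and CDKN3 (-0.09, interval -0.41 to 0.23) were not called, and after correction for GC content CDKN1C was at -0.070 and CDKN3 at 0.044. CDK6 was called higher without H1792 DMSO replicate 1 (0.45, edgeR adjusted p = 7.5e-04), after correction for GC content (0.36, adjusted p = 0.0012), without a filter on low counts (0.34, adjusted p = 0.0072) and with at least 10 counts required in every library (0.35, adjusted p = 0.0045).

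CDKN2A and CDKN2B could not enter the fit between lines, and their reads were compared by exact counting intervals, which cover counting error only. Over the DMSO libraries CDKN2A had 39 reads in H1792 and 1 in A549, a ratio of 11.98 between their CPM values (95% interval 2.03 to 485). The libraries overlapped, with 0.0700 CPM in H1792 replicate 3 and 0.0720 CPM in A549 replicate 3. The interval leaves out the spread between the H1792 DMSO libraries, which ran from 0.0700 to 0.357 CPM. With AMG900 it had 49 reads in H1792 and 0 in A549, 5.26 times a floor of 3 counts over the 4 A549 libraries (0.0515 CPM), and the exact 95% interval of the ratio started at 4.12. CDKN2B had 13 reads in the H1792 DMSO libraries and 0 in those of A549, and the exact 95% interval of the ratio started at 0.936, so a difference was not detectable at this depth. Its 6 reads with AMG900 in H1792 lie under the floor of 3 counts in A549, and no fold is given.

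Genes around CDKN2A on 9p21 were read in both lines, except that CDKN2B-AS1 had 0 reads in A549 and ELAVL2 had 0 reads in H1792. Of 10 neighbours, 7 could be tested between the DMSO groups, of which 1 was higher and 5 were lower in H1792, where 34.2% and 31.9% of all genes were. MTAP, a methionine salvage enzyme, was the one that was higher in H1792 (27.9 ± 1.73 against 7.25 ± 0.325 CPM, log2 1.94, edgeR adjusted p = 3.2e-11). The midpoint of its gene lies 0.11 Mb from that of CDKN2A, and A549 still gave 32 to 130 MTAP reads per DMSO library. Each of the 5 genes that were lower had an edgeR adjusted p of at most 6.2e-04. On the same side MIR31HG, the host of miR-31, had a log2 difference of -3.17, KLHL9, a ubiquitin ligase adaptor, of -1.01, FOCAD of -0.79 and MLLT3, a chromatin reader, of -0.65. On the other side DMRTA1 had a log2 difference of -1.63. HACD4 was not called (-1.09, interval -2.37 to 0.18), while IFNE, CDKN2B-AS1 and ELAVL2 had too few reads for a test, with at most 6, 1 and 4 in any library.

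**Figure D3:**
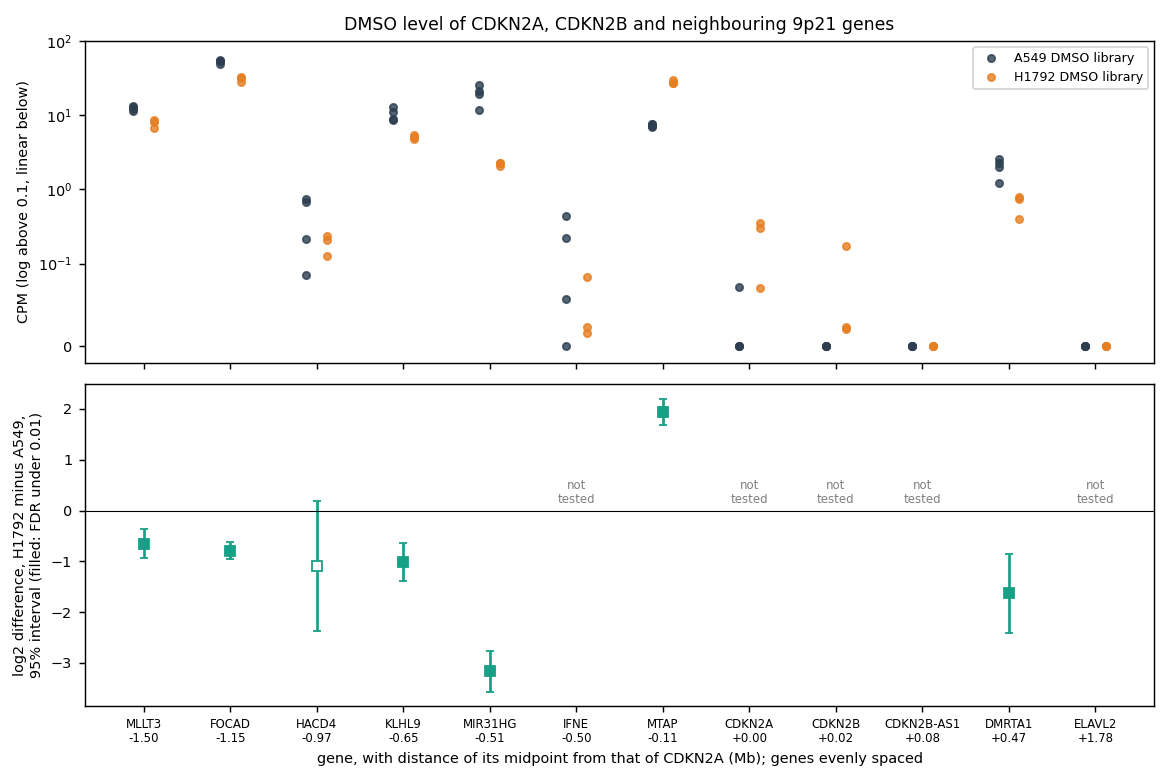
Upper panel, CPM of CDKN2A, CDKN2B and 10 neighbouring 9p21 genes in each DMSO library (A549 dark, H1792 orange; logarithmic axis above 0.1, linear below); lower panel, log2 difference H1792 minus A549 with 95% interval, filled where the FDR was under 0.01. Genes are in chromosomal order, evenly spaced, with the distance of the gene midpoint from that of CDKN2A in Mb under each name. MTAP at 1.94 is the gene above 0, and CDKN2A and CDKN2B could not be tested.

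With AMG900, 1 of 6 tested neighbours was higher in A549 (MIR31HG, log2 0.68, edgeR adjusted p = 0.0029), where 17.2% of all genes were, and none was lower, where 17.8% were, although KLHL9 (-0.65, adjusted p = 0.012) had an unadjusted p under 0.05 and was called lower by DESeq2 (adjusted p = 0.0053). MIR31HG lost its call without DMSO replicate 3, AMG900 replicate 1 or AMG900 replicate 2. In H1792, KLHL9 (-0.64, adjusted p = 0.0028) and MTAP (-0.29, adjusted p = 0.0063) were lower among 7 tested, where 18.8% of all genes were. With the replicate block MTAP lost its call (-0.29, edgeR adjusted p = 0.014), 1 neighbour was called lower without DMSO replicate 2 or AMG900 replicate 3, 3 without DMSO replicate 1, and 0 without DMSO replicate 3, AMG900 replicate 1 or AMG900 replicate 2. With 1 H1792 library left out, 12.2% to 24.1% of all genes were called lower. After correction for GC content neither KLHL9 (-0.25) nor MTAP (0.14) was called. MLLT3 (0.54) and HACD4 (1.72) were then called higher, where 15.1% of all genes were. The interaction was called for none of the 7 neighbours by edgeR or by DESeq2, with 1 (MIR31HG, -0.62) at an unadjusted p under 0.05, where 5.37% of all genes were called higher and 9.17% lower.

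Levels can be set side by side between genes only per length, here as CPM per kb of the canonical transcript. The order and the shares below depend on that length. It was 995 bases for CDKN2C and 1425 for CDKN2D, whereas all exons together covered 3018 and 1505 bases. For CDKN1B it was 2411 against 9255 bases, and for CDKN3 841 against 1829. The order and the shares by the longer lengths were not computed. CDK4 was first of the 10 in every group, at 195 CPM per kb in A549 and 311 CPM per kb in H1792 with DMSO. In A549 with DMSO it was followed by CDKN3 (34.5), CDK2 (20.9), CDKN2C (19.3), CDKN1B (10.9), CDK6 (2.81), CDKN2D (2.58) and CDKN1C (0.622 CPM per kb). CDK6 and CDKN2D overlapped in that order, while the other neighbours among these were apart. With AMG900 in A549, CDKN1B followed CDK4 (9.35 CPM per kb) and CDKN3 behind CDK2 (5.00 CPM per kb). Adjacent genes overlapped there for CDKN1B with CDKN2C, CDK2 with CDKN3, CDKN2D with CDK6, and CDK6 with CDKN1C.

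In H1792 with DMSO the order after CDK4 was CDKN2C (48.6), CDKN3 (32.4), CDK2 (17.1), CDKN1B (16.9), CDKN2D (11.2), CDK6 (3.43) and CDKN1C (0.762 CPM per kb), with CDK2 and CDKN1B overlapping. AMG900 put CDKN3 (38.9 CPM per kb) before CDKN2C (33.1 CPM per kb), with overlapping ranges, and CDKN1B before CDKN2D, which overlapped as well. CDK2 followed these at 9.45 CPM per kb. CDKN2A and CDKN2B were last in every group.

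With AMG900 the CDK4 share of this length-scaled level was higher and the CDK2 share lower in both lines. CDK4 made up 89.1% ± 0.698 (SD, n = 4) of the summed level of the 3 kinases in A549 with DMSO and 96.0% ± 0.377 with AMG900. The CDK2 share went from 9.58% ± 0.643 to 2.86% ± 0.261 there. In H1792 the CDK4 share was 93.8% ± 0.349 (SD, n = 3) with DMSO and 95.5% ± 0.100 with AMG900, and the CDK2 share 5.15% ± 0.181 and 3.42% ± 0.118. The ranges with and without AMG900 did not overlap for any of these shares.

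Among the INK4 genes CDKN2C and CDKN2D gave nearly all of the level. The CDKN2C share was 88.2% ± 2.24 in A549 with DMSO and 76.0% ± 8.69 with AMG900, where the libraries ranged from 65.7% to 87.0% and overlapped those with DMSO. In H1792 it was 80.9% ± 1.20 with DMSO and 71.0% ± 0.976 with AMG900. The CDKN2A share did not exceed 0.702% in any library. The split between CDKN2C and CDKN2D rests on their canonical lengths of 995 and 1425 bases, and which of them leads by total exon length was not computed. These shares restate the levels above and carry no test of their own.

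**Figure D4:**
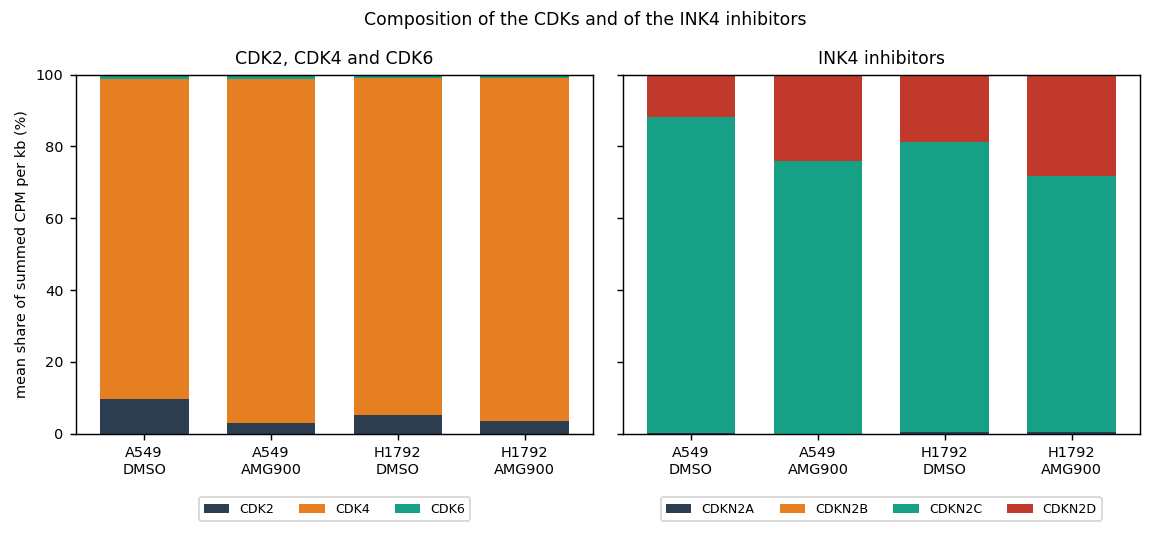
Mean share (%) of the summed CPM per kb of canonical transcript held by each of CDK2, CDK4 and CDK6 (left) and by each INK4 gene (right) in the 4 groups. The shares depend on that choice of length. CDK4 holds between 89.1% and 96.0% of the kinase level, and CDKN2C between 71.0% and 88.2% of the INK4 level, with the CDKN2D share larger under AMG900 in both lines.

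The partners and regulators of these kinases were followed as a list of 23 genes: D-, E- and A-type cyclins, the CDK-activating kinase, CDC25A, ubiquitin ligase subunits, CDC37, the RB1 family, E2F1 to E2F3 and CDKN1A. In A549, 11 of 21 tested genes were lower and 1 was higher, against 17.8% and 17.2% of all genes, with medians of -0.51 and -0.01. The largest falls were those of CCNA2, the cyclin A partner of CDK2 (log2 -4.63, edgeR adjusted p = 1.2e-08), and of the transcription factor genes E2F2 (-4.56) and E2F1 (-2.76). The gene that rose was CDKN1A, which encodes p21 (log2 1.73, edgeR adjusted p = 6.5e-11).

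In H1792, 11 of 22 tested genes were lower and 2 were higher, against 18.8% and 16.2% of all genes, with medians of -0.41 and 0.01. RB1, the pocket protein phosphorylated by these kinases, fell most (log2 -1.57, edgeR adjusted p = 3.8e-04), followed by CCNA2 (-1.32) and SKP1, a ubiquitin ligase subunit (-0.79). CDKN1A (0.60) and CDC37, a chaperone of CDK4 (0.58), rose. After correction for GC content RB1 was at -1.02, SKP1 at -0.50, CDC37 at 0.28 and CDKN1A at 0.34 in H1792, all still called. RB1 without this correction had a log2 value of -1.09 in A549 and was not called (edgeR adjusted p = 0.016). The interaction of RB1 was not called either (-0.56, edgeR adjusted p = 0.37). In A549 correction for GC content left 8 genes lower and 2 higher, where 17.8% and 14.5% of all genes were. Requiring at least 10 counts in every library left 7 lower and 2 higher of 18, where 18.6% and 19.6% of all genes were. Leaving out DMSO replicate 1 gave 14 lower and 3 higher of 22, where 22.1% and 21.4% of all genes were. Without DMSO replicate 3 there were 9 lower and 1 higher of 21, where 14.8% and 13.9% of all genes were. In H1792, 7 genes were lower without AMG900 replicate 1, where the share of all genes called lower was 12.2%. Without H1792 DMSO replicate 1, 14 genes were lower, where that share was 24.1%.

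**Figure D5:**
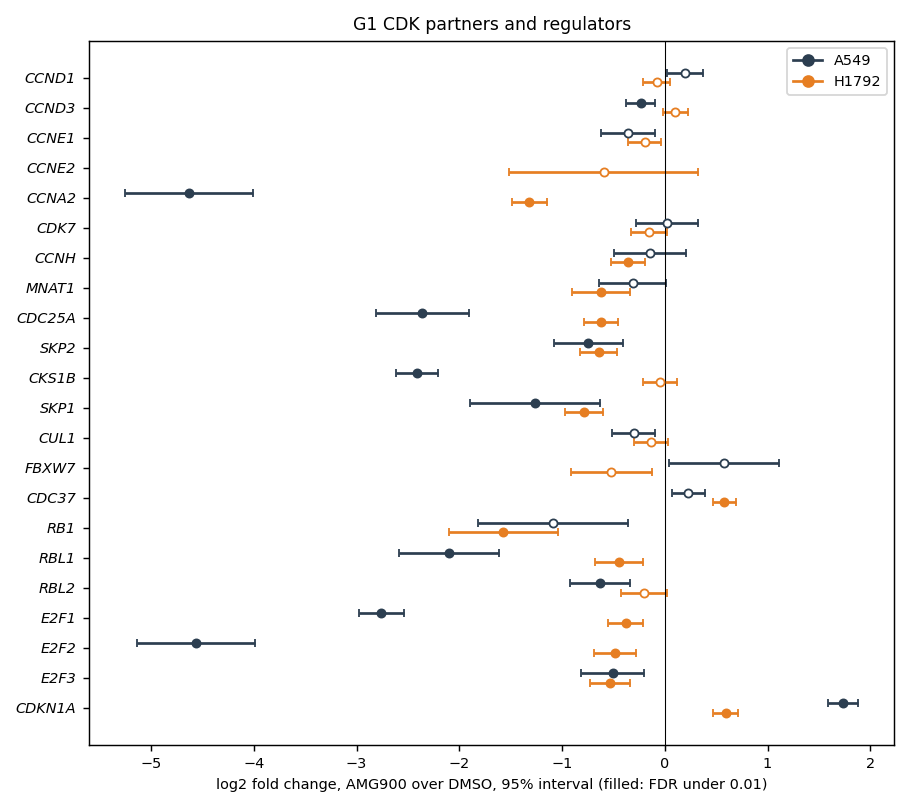
Log2 fold change of AMG900 over DMSO with 95% interval for the partner and regulator genes that could be tested, in A549 (dark) and H1792 (orange), filled where the edgeR FDR was under 0.01. CCNA2 and E2F2 stand farthest left in A549 at -4.63 and -4.56, whereas in H1792 RB1 does at -1.57; CDKN1A lies right of 0 in both lines.

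The interaction was called higher in H1792 for 6 of 22 partner genes, with E2F2 (4.01), CCNA2 (3.21) and E2F1 (2.30) the largest, and lower for CDKN1A (-1.21, edgeR adjusted p = 1.2e-08). Of all genes 5.37% and 9.17% were so called. With DMSO alone, 7 of 22 were higher in H1792 and 4 lower, near the 34.2% of all genes for the first and under the 31.9% for the second. Higher genes were led by CCNA2 (1.29), SKP2, the p27 ubiquitin ligase receptor (1.28), and CDC25A, a CDK-activating phosphatase (1.17). Of the lower genes, CDKN1A (-3.38), CCND3 (-0.98) and CCND1 (-0.56) had the largest differences. Scaled over all 14 libraries, CDKN1A was at 482 ± 45.9 CPM in A549 and 46.2 ± 1.07 CPM in H1792 with DMSO, and at 1695 ± 48.7 and 70.0 ± 1.38 CPM with AMG900.

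The genes whose pattern was most like that of CDKN3 over the 14 libraries, each gene centred within its line, were AURKA (Pearson r = 0.989), PSMC3IP (0.983) and CDC6 (0.983) among 12625 genes tested in both lines. For CDKN1C they were GGT1 (0.981), WNT7B (0.980) and KCNN4 (0.978). These values are descriptive, since the libraries share the treatment contrast, and they carry no test.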

How the data were processed

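The authors deposited raw counts of reads per gene symbol, 1 table per line. The submitters' processing notes name STAR, HTSeq and hg19 (GRCh37), while versions, annotation and strand setting are not given in the sources used here. The 28 H1792 entries named as calendar dates (0.101% to 0.117% of counts) were left out. Genes were kept by filterByExpr, scaled by TMM and tested with edgeR 4.0.16 (R 4.3.3) quasi-likelihood tests at a Benjamini-Hochberg FDR of 0.01 over all genes, AMG900 against DMSO within each line (8 and 6 libraries), and the interaction and DMSO contrasts in 1 fit of 14 libraries. Alternatives were DESeq2 1.42.0, other scalings and filters, an FDR of 0.05, a replicate block, a GC content correction (spline with 5 degrees of freedom per library) and leaving out each library. Correlations used log2 CPM with a prior count of 2. The steps were tested on simulated data. Positions and lengths came from GENCODE 44 on GRCh37, in which 23639 of 26786 names matched 1 gene. The members and lists were chosen with earlier results of these data known. Named were all members, the 3 partner genes with the largest change each way and all 9p21 neighbours, plus TSPAN31 and PMEL for their exon overlap. The biological coefficient of variation was 12.8% in A549 and 9.60% in H1792, and counting error adds to it at low counts.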

Additional observations from a re-analysis of the deposited data

Results flagged for a closer look

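The response to AMG900 differed between H1792 and A549, by the test of the interaction itself, for CDKN3 (3.04 on the log2 scale), CDK2 (1.14) and CDKN2C (1.00), each with a weaker fall or no fall in H1792. All 3 kept their call under each alternative that was run, each library left out in turn included. No library stood apart from the rest of its group in the 16 sets of 4 A549 values examined, 1 for each of the 8 tested genes in each of the 2 A549 groups. The H1792 groups, with 3 libraries each, were not examined in this way.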

How the results depend on the processing

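Of 610 member values recomputed under alternatives, 569 kept their direction and their side of the threshold, 20 lost their call, 9 gained one and 12 turned in sign without being called. Replicate numbers did not pair the libraries. For this check the group mean of each gene was subtracted from its log2 CPM. The remaining deviations of same-numbered DMSO and AMG900 libraries correlated by at most 0.064 in A549 and 0.042 in H1792. By this measure 1 of 4 A549 and 1 of 3 H1792 DMSO libraries correlated best with their own number. With the replicate block CDK4 in A549 lost its call (log2 -0.22, edgeR adjusted p = 0.028), and no other member call changed. That call was also lost with DESeq2 size factors and under either other filter on low counts (adjusted p = 0.012 to 0.023). Requiring 10 counts in every library left 0 members called higher in A549 (19.6% of all genes), since CDKN1C was then not tested. Correction for GC content called 2 higher in H1792 (15.1% of all genes). In the DMSO comparison 0 members were called lower without a filter on low counts (CDK2 -0.24) or after correction for GC content, where 20.8% and 33.6% of all genes were. Leaving out 1 library gave 1 to 1 members higher and 4 to 5 lower in A549, 1 to 2 higher and 3 to 5 lower in H1792, 3 to 3 higher and 0 to 0 lower in the interaction, and 4 to 5 higher and 0 to 1 lower in the DMSO comparison. Of all genes, 13.8% to 21.4% were then higher and 13.9% to 22.1% lower in A549. In H1792 these shares were 9.13% to 20.1% and 12.2% to 24.1%. They were 4.02% to 7.68% and 6.44% to 12.9% in the interaction, and 31.7% to 35.6% and 27.4% to 33.0% in the DMSO comparison. Signs turned after correction for GC content for CDKN2A (-0.17), CDKN2D (-0.075) and CDK6 (0.12) in H1792, CDKN1C (0.12) and CDK4 (0.022) in the interaction, and CDKN1C (-0.070) and CDKN3 (0.044) between the DMSO groups. Signs also turned without H1792 DMSO replicate 1 for CDKN1C in the interaction (0.27) and for CDKN1C (-0.095) and CDKN3 (0.13) between the DMSO groups, and for CDKN2A in H1792 without DMSO replicate 3 (-0.30) or AMG900 replicate 1 (-0.12). Over all libraries left out, CDKN2A in H1792 went from -0.30 to 0.42, CDKN1C from -0.33 to 0.27 in the interaction and from -0.095 to 0.46 between the DMSO groups, and CDKN3 there from -0.28 to 0.13. The cause was not tested. Depth limits CDKN2A, CDKN2B and, in A549, CDKN2D and CDKN1C.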
